A study of Mus musculus with 8 samples.

Results

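The genes described here make, move, store, sense and remove cholesterol in mouse ischemic brain tissue and in T cells of the ischemic brain. They were taken from a fixed list of 31 symbols, and the probes of each gene were found through the RefSeq accession that the array files give. Of the 31 genes, 30 had a probe, and these 30 genes had 47 probes among 56605 probes and 22911 named genes on the array. Acat2, the thiolase that joins acetyl units at the start of the pathway, had no probe under its RefSeq accession, so its expression was not analysed here. The 30 genes were 17 synthesis enzymes, 6 genes of control, transport and storage, and 7 genes of export and sterol sensing. Membership uses no measured value, although the list was drawn up with earlier results of these data known.

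Cholesterol is made from acetyl-CoA by way of mevalonate, farnesyl diphosphate, squalene and lanosterol. When sterols are scarce, the transcription factor SREBP2, encoded by Srebf2, is released from the endoplasmic reticulum and raises transcription of nearly all the synthesis enzymes and of genes for lipoprotein uptake; Insig1 holds it back when sterols are plentiful. Oxysterols, in contrast, activate the liver X receptors (LXR, one of them encoded by Nr1h3), which raise transcription of the exporters Abca1 and Abcg1 and of Mylip, a ubiquitin ligase that limits lipoprotein uptake. The adult brain makes its own cholesterol, because lipoproteins do not cross the blood-brain barrier, and disposes of a surplus mainly through Cyp46a1, a hydroxylase of neurons. Microglia and macrophages that clear myelin and dead cells take up large amounts of cholesterol.

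Messenger RNA was measured on 8 single-colour microarrays, 1 array for each of 8 groups. The T cell arrays held regulatory T cells (Treg, CD4 T cells that depend on the transcription factor Foxp3) and other CD4 T cells (nonTreg). Brain Treg and brain nonTreg came from the ischemic brain of wild type (WT) mice at day 14 after stroke, and spleen Treg and spleen nonTreg from untreated mice. The tissue arrays held brain slices from the ischemic side of DEREG mice after stroke (DEREG ischemia), WT mice after stroke (WT ischemia), DEREG mice after sham surgery (DEREG sham) and WT mice after sham surgery (WT sham), all at day 14. In DEREG mice the Foxp3 gene's control region drives a receptor for diphtheria toxin, so that the toxin can remove Treg; the labels used here say neither whether toxin was given, nor how Treg and nonTreg were separated, nor how many mice gave each RNA, nor the age of the mice. Since each group has a single array, replicate error is unknown, no test between groups could be made, and the values describe these 8 libraries.

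Levels are given as processed intensity, the background-subtracted brightness of a gene's probe on a linear scale, before arrays were scaled to each other. Differences are log2 values or folds after each array was scaled to its 75th percentile. Levels of different genes cannot be compared, since each probe has its own brightness. Well above background is the scanner software's flag; where the dimmer array did not carry it, the difference is a bound and is written "at least". All 30 genes were well above background in brain Treg, brain nonTreg, DEREG ischemia, WT ischemia and DEREG sham. In WT sham 29 were, without Apoc2, and in both spleen libraries 28 were, without Ch25h and Apoc2. The T cell libraries carried all 11 T cell markers above background, and the tissue libraries all 11 neuron markers. Foxp3 was not well above background on any of the 4 tissue arrays, so those arrays do not show whether Treg were fewer in DEREG mice.

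The start regions of 3 genes are shown because their transcripts stood on opposite sides after stroke, Hmgcs1 and Idi1 lower and Abca1 higher, as the later values show. The sequences are RefSeq's for the mouse assembly GRCm38.p6, each 300 bases around the transcript start, most of them before it. Hmgcs1 lies on the plus strand at chr13:119690101-119690400, Idi1 on the plus strand at chr13:8885356-8885655 and Abca1 on the minus strand at chr4:53159846-53160145. Capitals mark matches, on either strand, to TCACNCCAC (the core of a sterol regulatory element, the site SREBP2 binds), to CCAAT (the box bound by NF-Y, a partner of SREBP2 at many of its targets, which reads ATTGG on the other strand) and to TGACC and TAACC with 5 bases between them (the direct repeat through which LXR acts, in the form known from the Abca1 promoter itself).
Hmgcs1: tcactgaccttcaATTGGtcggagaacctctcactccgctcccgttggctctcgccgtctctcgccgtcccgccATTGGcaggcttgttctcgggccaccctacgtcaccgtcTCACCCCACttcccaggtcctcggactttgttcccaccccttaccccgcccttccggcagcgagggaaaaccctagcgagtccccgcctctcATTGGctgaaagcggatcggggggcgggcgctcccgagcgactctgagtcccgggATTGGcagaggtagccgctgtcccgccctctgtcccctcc
Idi1: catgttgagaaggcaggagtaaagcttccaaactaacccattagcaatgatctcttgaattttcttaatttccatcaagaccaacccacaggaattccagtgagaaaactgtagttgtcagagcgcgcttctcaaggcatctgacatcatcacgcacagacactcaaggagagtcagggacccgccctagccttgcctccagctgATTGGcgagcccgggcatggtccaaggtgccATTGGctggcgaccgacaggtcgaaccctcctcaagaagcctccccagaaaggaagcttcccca
Abca1: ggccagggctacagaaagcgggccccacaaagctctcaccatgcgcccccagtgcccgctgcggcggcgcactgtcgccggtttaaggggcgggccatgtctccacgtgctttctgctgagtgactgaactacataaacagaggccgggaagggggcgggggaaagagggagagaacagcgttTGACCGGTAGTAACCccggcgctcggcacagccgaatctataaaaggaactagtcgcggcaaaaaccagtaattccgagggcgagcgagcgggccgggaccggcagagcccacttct
Hmgcs1 held 1 match to TCACNCCAC and 4 to CCAAT, Idi1 held 2 to CCAAT, and Abca1 held 1 to the repeat; the capitalised runs do not overlap. A start region was at hand for 25 of the 31 listed genes. CCAAT stood in 14 of 15 synthesis enzymes (all but Acat2), in 2 of 6 export and sensing genes (Cyp46a1 and Mylip) and in 37.4% of all 32851 mouse start regions of this length. The GC box GGGCGG stood in 14 of 15 synthesis enzymes, in 3 of 6 export and sensing genes and in 35.7% of all start regions. TCACNCCAC stood in Hmgcs1 alone among the 25 and in 1.24% of all start regions. The repeat of TGACC and TAACC stood in Abca1 alone among the 25 and in 16 start regions in all, 0.0487%. Since its letters were taken from the Abca1 promoter, its match in Abca1 is not an independent find. The general LXR repeat, AGGTCA and AGGTCA with 4 bases between them, stood in none of the 25 and in 0.0152% of all. These matches describe letters in a window, the motifs were chosen with the expression values known, and no binding was measured.

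In brain tissue, synthesis transcripts other than Ebp were lower after stroke, and export and sterol sensing transcripts other than Cyp46a1 were higher, in DEREG and in WT mice. Of the 17 synthesis enzymes, 16 were lower in ischemia than in sham in DEREG mice and 16 in WT mice, with medians of -1.07 in both. In DEREG mice 9 enzymes were lower by 2-fold or more and 1 was higher by that much, and in WT mice 9 were lower and none higher. The same thresholds were passed downward by 22.1% of all 17161 genes compared in DEREG mice and by 18.4% of 16968 in WT mice, and upward by 22.4% in DEREG and 18.8% in WT mice. The median of all genes was -0.06 in DEREG and -0.14 in WT mice. In a piece of tissue, fewer cells of a type and less RNA per cell cannot be told apart.

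The early enzymes, which run from acetyl units to farnesyl diphosphate, differed among themselves. Hmgcs1, which makes HMG-CoA, had intensities of 4274 in DEREG ischemia and 4532 in WT ischemia, against 10791 in DEREG sham and 13277 in WT sham. Both ischemic libraries lay below both sham libraries, by 2.38-fold in DEREG mice and 2.99-fold in WT mice. Idi1, the isomerase of the isoprene units, read 259 in DEREG ischemia and 255 in WT ischemia, against 816 in DEREG sham and 943 in WT sham. It was 2.96-fold lower in DEREG and 3.78-fold lower in WT mice, the lowest ratio among the synthesis enzymes in WT. Fdps, which joins the isoprene units into farnesyl diphosphate, read 1148 in DEREG ischemia and 1231 in WT ischemia, against 3136 in DEREG sham and 3370.2 in WT sham. It was 2.57-fold lower in DEREG and 2.80-fold lower in WT mice. The 3 enzymes between Hmgcs1 and Idi1, all acting on mevalonate, differed less. Mvk, mevalonate kinase, read 2765 in DEREG ischemia and 2582 in WT ischemia, against 3679 in DEREG sham and 3691 in WT sham. Pmvk, phosphomevalonate kinase, read 6380.5 in DEREG ischemia and 5580.3 in WT ischemia, against 7404 in DEREG sham and 7503 in WT sham. Mvd, the mevalonate diphosphate decarboxylase, read 499 in DEREG ischemia and 464 in WT ischemia, against 792 in DEREG sham and 854 in WT sham. For each of these 3 the ischemic libraries lay below the sham libraries, by 1.09-fold to 1.49-fold in DEREG and by 1.37-fold to 1.88-fold in WT mice for Pmvk, Mvk and Mvd.

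The enzymes from squalene onward held the other large differences. Fdft1, squalene synthase, read 1243 in DEREG ischemia and 1387 in WT ischemia, against 4675 in DEREG sham and 4839 in WT sham. Its folds were almost the same in both genotypes, 3.54-fold lower in DEREG and 3.56-fold lower in WT mice. Sqle, squalene epoxidase, a rate-limiting step of the later pathway, read 872 in DEREG ischemia and 978 in WT ischemia, against 2890.5 in DEREG sham and 3266 in WT sham. It was 3.12-fold lower in DEREG and 3.41-fold lower in WT mice. Msmo1, which oxidises methyl groups of the sterol ring, read 1979.7 in DEREG ischemia and 1849 in WT ischemia, against 4406 in DEREG sham and 5941 in WT sham. The sham libraries of Msmo1 differed from each other by 1.44-fold, and its stroke difference was 2.09-fold in DEREG and 3.28-fold in WT mice.

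Lss, which closes the sterol rings to lanosterol, was 2.42-fold lower in DEREG and 2.10-fold lower in WT mice, with intensities of 309.5 in DEREG ischemia and 356 in WT ischemia, against 794 in DEREG sham and 732 in WT sham. Cyp51, the lanosterol demethylase, was 2.18-fold lower in DEREG and 2.25-fold lower in WT mice. Its intensities were 466 in DEREG ischemia and 549.9 in WT ischemia, against 1080.4 in DEREG sham and 1209 in WT sham. Tm7sf2, a sterol reductase, read 979 in DEREG ischemia and 1289 in WT ischemia, against 2515 in DEREG sham and 2348 in WT sham. That is 2.42-fold lower in DEREG and 1.86-fold lower in WT mice. Sc5d, a sterol desaturase, read 744 in DEREG ischemia and 657 in WT ischemia, against 1316 in DEREG sham and 1491 in WT sham. It had the larger difference in WT mice, at 1.66-fold lower in DEREG and 2.32-fold lower in WT mice. Nsdhl and Hsd17b7, which finish the removal of methyl groups, were 1.90-fold and 1.43-fold lower in DEREG mice and 1.97-fold and 1.75-fold lower in WT mice. The intensities of Hsd17b7 were 629 in DEREG ischemia and 561 in WT ischemia, against 954 in DEREG sham and 963 in WT sham. Dhcr7, the reductase of the last step, differed least among the enzymes from squalene onward, 1.30-fold lower in DEREG and 1.24-fold lower in WT mice. Ebp, a sterol isomerase, went the other way. Its intensities were 10464 in DEREG ischemia and 7930.5 in WT ischemia, against 5219.8 in DEREG sham and 5229 in WT sham, 2.13-fold higher in DEREG and 1.49-fold higher in WT mice.

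**Figure D1:**
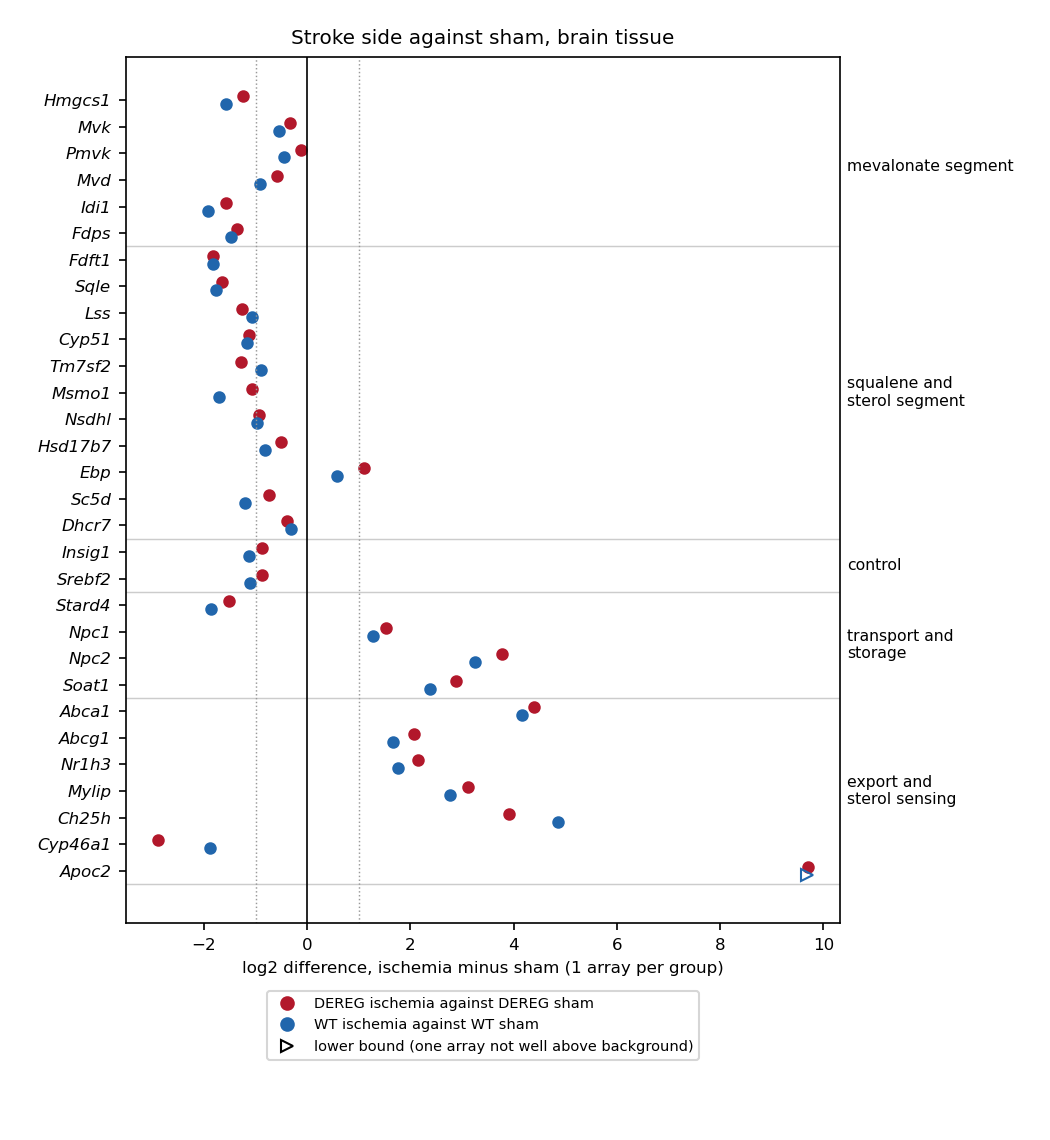
Log2 difference of each gene between ischemia and sham brain tissue (x axis), for DEREG mice (red) and WT mice (blue), with genes grouped by role on the y axis; dotted lines mark 2-fold and the open triangle a lower bound. Synthesis enzymes except Ebp lie left of 0, and transport, storage, export and sensing genes except Stard4 and Cyp46a1 lie right of 0.

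The control genes lay on the side of the synthesis enzymes. Srebf2, which encodes SREBP2 and is one of its own targets, read 237 in DEREG ischemia and 243 in WT ischemia, against 464 in DEREG sham and 516 in WT sham. Insig1, another SREBP2 target, read 129 in DEREG ischemia and 121 in WT ischemia, against 252 in DEREG sham and 257 in WT sham. Srebf2 and Insig1 were each 1.84-fold lower in DEREG mice, and 2.17-fold and 2.18-fold lower in WT mice. Stard4, a cytosolic sterol carrier that is also an SREBP2 target, read 105 in DEREG ischemia and 108 in WT ischemia, against 319 in DEREG sham and 386 in WT sham. It was 2.86-fold lower in DEREG and 3.65-fold lower in WT mice.

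The genes of the lysosome and of storage were higher. Npc2, the soluble protein that takes cholesterol from lysosomal contents, read 18736 in DEREG ischemia and 14201 in WT ischemia, against 1456 in DEREG sham and 1457 in WT sham. That is 13.7-fold higher in DEREG and 9.54-fold higher in WT mice. Npc1, the membrane protein that receives cholesterol from Npc2, read 7073 in DEREG ischemia and 6079 in WT ischemia, against 2609 in DEREG sham and 2476 in WT sham. The difference of Npc1 was smaller, 2.88-fold higher in DEREG and 2.40-fold higher in WT mice. Soat1, which esterifies cholesterol for storage in droplets, read 4724 in DEREG ischemia and 3699.5 in WT ischemia, against 685 in DEREG sham and 695 in WT sham. It was 7.33-fold higher in DEREG and 5.21-fold higher in WT mice.

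Of the 7 export and sensing genes, 6 were at least 2-fold higher after stroke in each genotype and 1, Cyp46a1, at least 2-fold lower, with medians of 3.11 in DEREG and 2.76 in WT mice. Abca1, which loads cholesterol onto apolipoproteins, read 8607 in DEREG ischemia and 6628 in WT ischemia, against 437 in DEREG sham and 360.4 in WT sham. On the log2 scale it was 4.39 higher in DEREG and 4.17 higher in WT mice. Abcg1, the exporter that delivers cholesterol to lipoprotein particles, read 10791 in DEREG ischemia and 8309.9 in WT ischemia, against 2749 in DEREG sham and 2555 in WT sham. Its difference was smaller than that of Abca1, 4.17-fold higher in DEREG and 3.18-fold higher in WT mice. Nr1h3, encoding LXR alpha, read 1156 in DEREG ischemia and 897 in WT ischemia, against 278 in DEREG sham and 261 in WT sham, and was 4.42-fold higher in DEREG and 3.36-fold higher in WT mice. Mylip read 3911 in DEREG ischemia and 3187 in WT ischemia, against 480.1 in DEREG sham and 459.8 in WT sham. Mylip was thus 8.66-fold higher in DEREG and 6.79-fold higher in WT mice.

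Ch25h, a hydroxylase that turns cholesterol into an oxysterol and is known from activated macrophages, read 5340.3 in DEREG ischemia and 3926 in WT ischemia, against 379 in DEREG sham and 133 in WT sham. Among the members it was the only one whose sham libraries differed by 2-fold or more, with DEREG sham 2.66-fold above WT sham. Its stroke difference was 15.0-fold in DEREG and 28.8-fold in WT mice. Apoc2, an apolipoprotein that activates lipoprotein lipase, read 14863 in DEREG ischemia and 10462 in WT ischemia, against 19.1 in DEREG sham and 12.5, not well above background, in WT sham. It was 827-fold higher in DEREG and at least 818-fold higher in WT mice, the largest difference among the members in both. In RefSeq's order of protein-coding genes on mouse chromosome 7, Apoc2 is followed by Apoc4, Apoc1 and Apoe, all apolipoprotein genes. Apoc4 read 1895 in DEREG ischemia and 1438 in WT ischemia and was not well above background in either sham library, at least 184-fold higher in DEREG and at least 120-fold higher in WT mice. Apoc1 was 65.1-fold higher in DEREG and 69.7-fold higher in WT mice. Apoe, the main lipoprotein component of the brain, was already bright in sham tissue and was 2.07-fold higher in DEREG and 1.95-fold higher in WT mice, so the differences of these neighbours were of unequal size.

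**Figure D2:**
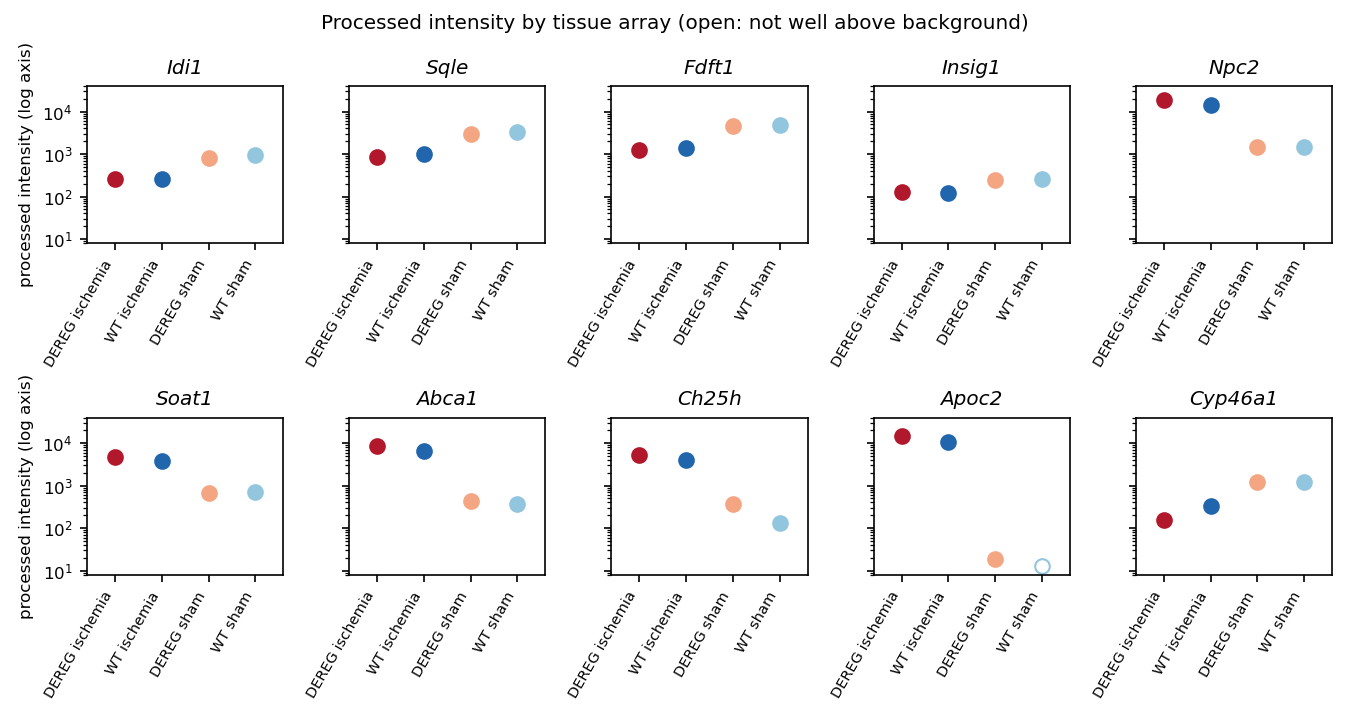
Processed intensity on a log axis of 10 genes in the 4 brain tissue libraries, 1 point per library (open where not well above background). Idi1, Sqle, Fdft1, Insig1 and Cyp46a1 are lower in both ischemic libraries, and Npc2, Soat1, Abca1, Ch25h and Apoc2 are higher in both, than in either sham library.

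Markers of several cell types also differed between ischemia and sham. The summed intensity of 10 microglia markers was 288151 in DEREG ischemia and 249611.5 in WT ischemia, against 63512 in DEREG sham and 67603 in WT sham. The sum of 9 macrophage markers was 127094 in DEREG ischemia and 109884 in WT ischemia, against 2583 in DEREG sham and 2303 in WT sham. All 9 macrophage markers were at least 2-fold higher after stroke in each genotype, with medians of 5.15 in DEREG and 4.88 in WT mice. Of 10 microglia markers, 9 were at least 2-fold higher in DEREG and 8 in WT mice. The neuron markers went the other way, with sums of 28391 in DEREG ischemia and 66564 in WT ischemia, against 232861 in DEREG sham and 229843 in WT sham. Oligodendrocyte markers, from the cells that make myelin and much of the cholesterol of the brain, had medians of -0.16 in DEREG and -0.20 in WT mice, and their sums were 135541 in DEREG ischemia and 115482.5 in WT ischemia, against 119854 in DEREG sham and 114821.5 in WT sham. Astrocyte markers had medians of 1.02 in DEREG and 0.84 in WT mice. The part of each of these cell types in the differences of the cholesterol genes was not tested.

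Cyp46a1 was the export gene that was lower after stroke, and the only member at least 2-fold apart between the ischemic libraries. It read 154 in DEREG ischemia and 328 in WT ischemia, against 1208 in DEREG sham and 1187 in WT sham. The ischemic libraries of Cyp46a1 lay 7.37-fold below sham in DEREG and 3.70-fold in WT mice, and DEREG ischemia lay 2.09-fold below WT ischemia (-1.06). This difference between the ischemic libraries was -0.83 with normexp and -0.99 with scaling to the median, short of 2-fold in both. All 11 neuron markers were also at least 2-fold lower after stroke in each genotype, with a median of -3.13 and a range of -4.29 to -2.13 in DEREG mice, and a median of -1.87 and a range of -2.54 to -1.45 in WT mice. Between DEREG ischemia and WT ischemia the neuron markers ranged from -1.81 to -0.66, with a median of -1.22. The 3 differences of Cyp46a1, -2.88 in DEREG, -1.89 in WT and -1.06 between the ischemic libraries, each lay inside the range of the neuron markers. Abcg4, a cholesterol exporter related to Abcg1 and known from neurons, read 1173 in DEREG ischemia and 2301 in WT ischemia, against 7239.6 in DEREG sham and 6581 in WT sham. Its differences of -2.54 in DEREG mice, -1.55 in WT mice and -0.95 between the ischemic libraries also lay inside the neuron marker ranges. In WT mice that range held other members too, among them Idi1 (-1.92), Stard4 (-1.87), Fdft1 (-1.83) and Msmo1 (-1.71). In DEREG mice the synthesis enzymes (lowest -1.82) and Stard4 (-1.52) lay outside it. The part of neurons in these differences was not tested.

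**Figure D3:**
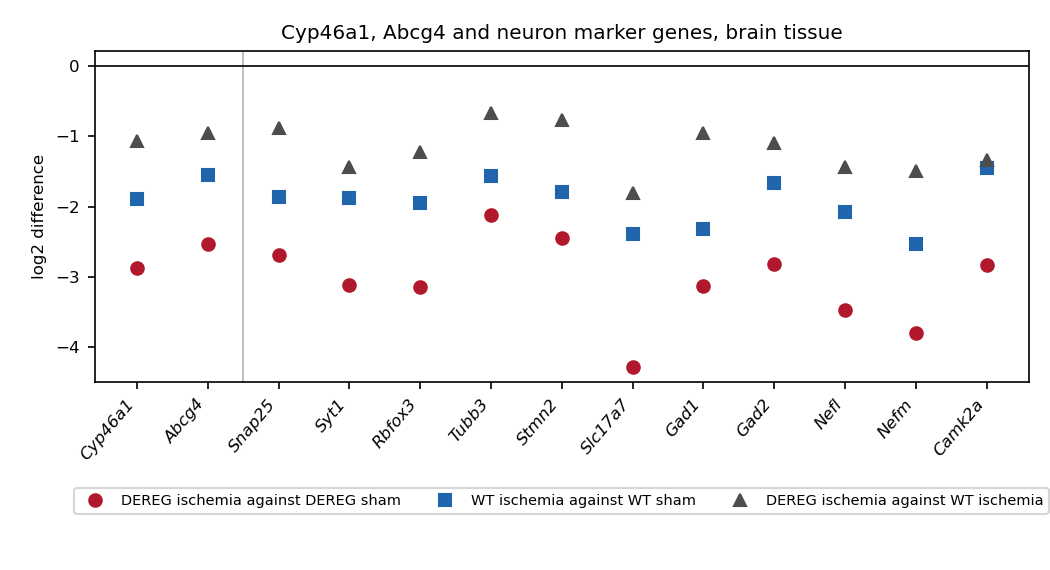
Log2 differences (y axis) of Cyp46a1, Abcg4 and 11 neuron markers (x axis) between DEREG ischemia and DEREG sham (red), WT ischemia and WT sham (blue), and DEREG ischemia and WT ischemia (grey). All points lie below 0, and Cyp46a1 and Abcg4 lie within the spread of the neuron markers in each comparison.

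Among 28 further cholesterol genes, 12 were higher and 5 lower by 2-fold or more after stroke in DEREG mice, and 10 and 6 in WT mice, with medians of 0.70 in DEREG and 0.41 in WT mice. Over all genes 22.4% were higher and 22.1% lower in DEREG mice, and 18.8% higher and 18.4% lower in WT mice, so the counts of lower genes are close to the share of all genes. Besides Abcg4, the lower genes included Vldlr, a lipoprotein receptor, 3.03-fold lower in DEREG and 2.46-fold lower in WT mice, and Lrp8, a receptor for Apoe and reelin on neurons, 3.05-fold lower in DEREG and 2.01-fold lower in WT mice. The lowest values of the 28 genes, -4.36 in DEREG and -3.08 in WT mice, lie outside the genes named here. Srebf1, which encodes SREBP1 and is a target of LXR, was higher, by 2.96-fold in DEREG and 2.39-fold in WT mice. Plin2, a coat protein of lipid droplets, read 15095 in DEREG ischemia and 15263 in WT ischemia, against 302 in DEREG sham and 313 in WT sham, 53.1-fold higher in DEREG and 47.7-fold higher in WT mice. Lipa, the lysosomal lipase that frees cholesterol from its esters, was higher by 3.52 in DEREG and 3.32 in WT mice on the log2 scale.

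Fatty acid synthesis genes, most of them under SREBP1, differed less than cholesterol synthesis genes. None of 11 was at least 2-fold higher in either genotype, 1 was at least 2-fold lower in each, and the medians were -0.32 in DEREG and -0.49 in WT mice. The 1 gene was Acss2, which makes acetyl-CoA from acetate, 2.17-fold lower in DEREG and 2.35-fold lower in WT mice. Of all genes compared, 22.4% were higher and 22.1% lower by 2-fold or more in DEREG mice, and 18.8% higher and 18.4% lower in WT mice. Fasn, fatty acid synthase, was 1.33-fold lower in DEREG and 1.58-fold lower in WT mice.

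**Figure D4:**
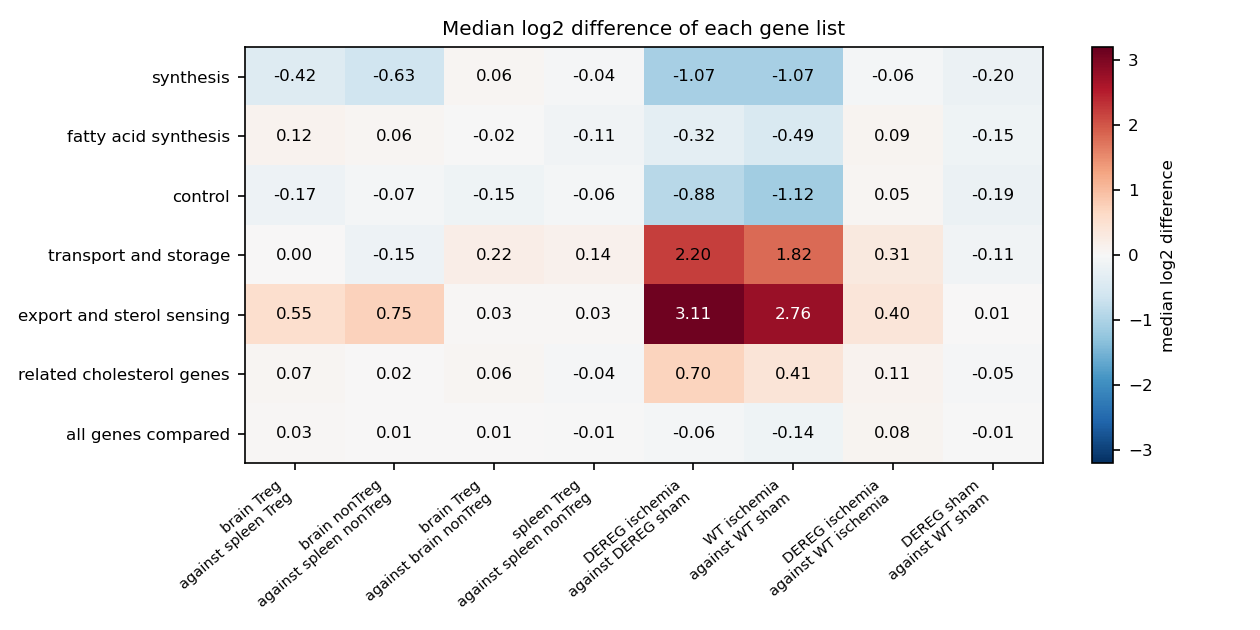
Median log2 difference of the cholesterol and fatty acid gene lists and of all genes (rows) in 8 comparisons (columns), 1 array per group, without the cell type markers, with blue for lower and red for higher. Among these rows the strongest shades are the export and sensing genes after stroke (3.11 in DEREG and 2.76 in WT mice), while cholesterol synthesis is at -1.07 in both.

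Between the genotypes the members differed little. The DEREG and WT comparisons below use the same 4 arrays as the stroke comparisons above. Between DEREG ischemia and WT ischemia, 0 of 30 members were at least 2-fold higher and 1, Cyp46a1, at least 2-fold lower, where 2.36% of all 16857 genes were higher and 5.37% lower. The 17 synthesis enzymes ranged from -0.37 (Tm7sf2) to 0.42 (Ebp), with 8 above 0 and 9 below. Their median of -0.06 ran from -0.09 to 0.01 over the alternative settings and so had no settled sign. The export and sensing genes other than Cyp46a1 were all higher in DEREG ischemia, from 0.32 (Mylip) to 0.53 (Apoc2), while the macrophage markers had a median of 0.46, the microglia markers 0.22 and all genes 0.08. Npc2 (0.42), Soat1 (0.38) and Npc1 (0.24) were likewise slightly higher. T cell markers stood further apart, with 10 of 11 at least 2-fold higher in DEREG ischemia and a median of 1.80. Among the 28 further cholesterol genes, 1 was at least 2-fold lower in DEREG ischemia and 0 were at least 2-fold higher, with a lowest value of -1.21. Abcg4 (-0.95) and Lrp8 (-0.62) were lower in DEREG ischemia by less than 2-fold.

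Between DEREG sham and WT sham, 1 of 30 members, Ch25h, was at least 2-fold higher (1.41) and 0 were at least 2-fold lower, where 0.590% of all 16273 genes were higher and 0.449% lower. With a normexp background correction Ch25h no longer passed 2-fold. Of the synthesis enzymes 15 of 17 were lower in DEREG sham, with a median of -0.20 and a lowest value of -0.53 (Msmo1), against a median of -0.01 over all genes. The microglia markers were also lower in DEREG sham, with 10 of 10 below 0 and a median of -0.19. The stroke difference itself, DEREG minus WT, reached 2-fold for none of 29 members measured on all 4 arrays, where 0.906% of 15120 genes were higher by that much and 5.21% lower. This split of 137 higher and 788 lower genes became 206 and 571 when arrays were scaled to the median. The members' median was 0.26, with 24 of 29 above 0, against 0.06 over all genes. The lowest values were those of Cyp46a1 (-0.995, just short of 2-fold) and Ch25h (-0.94), and the highest that of Msmo1 (0.65).

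In the T cells the comparison of brain with spleen also put synthesis transcripts lower and some export transcripts higher. The intensity at the scaling percentile was 1110.2 in brain Treg and 1022 in brain nonTreg, against 815 in spleen Treg and 724 in spleen nonTreg, so equal intensities stand for a lower scaled level in the brain. Of the 17 synthesis enzymes, 12 were lower in brain Treg than in spleen Treg, with a median of -0.42, and 13 were lower in brain nonTreg than in spleen nonTreg, with a median of -0.63. In Treg 2 enzymes were at least 2-fold lower and none higher, where 11.7% of all 13779 genes were lower and 17.2% higher. In nonTreg 6 were at least 2-fold lower and none higher, where 12.1% of all 13404 genes were lower and 17.8% higher. Against that background the 2 enzymes in Treg are close to the share of all genes. These counts hold for the probes used, and further probes of some of the genes counted went the other way, as given below.

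Among the early enzymes, Hmgcs1 read 1204 in brain Treg and 807 in brain nonTreg, against 1448 in spleen Treg and 1391 in spleen nonTreg. It was 1.64-fold lower in brain Treg and 2.43-fold lower in brain nonTreg than in the spleen cells of the same type. Fdps read 894 in brain Treg and 638 in brain nonTreg, against 1209.8 in spleen Treg and 1273 in spleen nonTreg, 1.84-fold lower in Treg and 2.82-fold lower in nonTreg. Idi1 read 398 in brain Treg and 217 in brain nonTreg, against 447 in spleen Treg and 339.6 in spleen nonTreg. Idi1 was thus 1.53-fold lower in Treg and 2.21-fold lower in nonTreg. For all 3 genes the brain nonTreg library was the lowest of the 4. Pmvk was near equality, at 0.01 in Treg and -0.12 in nonTreg (log2), and Mvd was 1.48-fold lower in Treg and 1.15-fold lower in nonTreg.

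Further along the pathway, Tm7sf2 read 182 in brain Treg and 208 in brain nonTreg, against 542 for spleen Treg and 585 for spleen nonTreg, the most negative difference of any member, 4.05-fold lower in Treg and 3.97-fold lower in nonTreg. Sqle read 856 in brain Treg and 755 in brain nonTreg, against 973 for spleen Treg and 899 for spleen nonTreg. It was 1.55-fold lower in Treg and 1.68-fold lower in nonTreg, and Cyp51 was 1.06-fold higher in Treg and 1.55-fold lower in nonTreg. Ebp and Sc5d were higher in the brain cells, Ebp by 1.54-fold in Treg and 1.28-fold in nonTreg, and Sc5d by 1.43-fold in Treg and 1.41-fold in nonTreg. Fdft1, Nsdhl and Dhcr7 stayed within 1.31-fold of equality in both cell types by the probes used. The control genes did as well in nonTreg, while Srebf2 was 1.33-fold lower and Insig1 1.05-fold higher in brain Treg.

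Several genes have further probes, and in the T cells these did not all give the same direction. Of 15 further probes measured on both arrays, 7 differed in sign from the probe used in Treg and 6 in nonTreg, and 4 in Treg and 6 in nonTreg were over 2-fold away from it. Mvk was 2.23-fold lower in brain Treg and 2.17-fold lower in brain nonTreg by its brighter probe, which read 922 in brain Treg and 901 in brain nonTreg, against 1513 for spleen Treg and 1383 for spleen nonTreg. Its dimmer probe went the other way, higher by 0.92 in Treg and 0.63 in nonTreg, with 87.4 in brain Treg and 74.8 in brain nonTreg, against 33.9 for spleen Treg and 34.2 for spleen nonTreg. Msmo1 was lower by its brighter probe (-0.82 in Treg and -1.04 in nonTreg) and slightly higher by the dimmer (0.16 in Treg and 0.12 in nonTreg). Stard4 read -0.32 in Treg and -0.64 in nonTreg by the brighter probe and 1.62 in Treg and 1.64 in nonTreg by the dimmer. For Lss the probe used gave -0.42 in Treg and -0.44 in nonTreg, and the others gave 0.37 and -2.11 in Treg and 0.63 and -1.97 in nonTreg. A second Tm7sf2 probe gave -0.99 in Treg against -2.02 by the first. For Ebp a second probe gave 1.52 in Treg against 0.62, and 1.94 in nonTreg against 0.36. That no synthesis enzyme was at least 2-fold higher in the brain cells therefore holds only for the probes used. The counts of enzymes at least 2-fold lower are limited in the same way. They include Mvk in both cell types and Msmo1 in nonTreg, which went the other way by their dimmer probes. They leave out Lss, which 1 of its further probes put over 2-fold lower in Treg and 1.97 lower on the log2 scale in nonTreg. The further probe of Nr1h3 gave 0.16 in Treg against -0.11 by the probe used, and that of Fdft1 gave 0.19 against -0.26. In nonTreg the further Fdft1 probe gave 0.97 against 0.19 by the probe used. For Mvk, Msmo1, Lss, Stard4 and Soat1 in both cell types, for Nr1h3 and Fdft1 in Treg and for Pmvk in nonTreg, the direction between brain and spleen therefore depends on the probe. In the tissue none of 15 further probes in DEREG mice and of 14 in WT mice differed in sign or by over 2-fold from the probe used in the stroke comparisons.

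Of the 7 export and sensing genes, 3 were at least 2-fold higher in the brain cells of each type and none lower, where 17.2% of all genes were higher and 11.7% lower in Treg, and 17.8% higher and 12.1% lower in nonTreg. Abca1 read 469 in brain Treg and 301 in brain nonTreg, against 69.0 in spleen Treg and 55.8 in spleen nonTreg. It was 4.99-fold higher in Treg and 3.82-fold higher in nonTreg. Ch25h read 335 in brain Treg and 348 in brain nonTreg, against 1.95 in spleen Treg and 2.17 in spleen nonTreg, both not well above background. The bounds for Ch25h were 27.7-fold in Treg and 25.0-fold in nonTreg. Apoc2 read 374 in brain Treg and 113 in brain nonTreg, against 1.93 in spleen Treg and 4.09 in spleen nonTreg, again not well above background. The bounds for Apoc2 were 4.95 in Treg and 3.01 in nonTreg on the log2 scale. Abcg1 was higher by less, 1.46-fold in Treg and 1.68-fold in nonTreg. Nr1h3 and Mylip, both at least 2-fold higher in tissue after stroke, did not reach 2-fold here, Nr1h3 being at -0.11 in Treg and -0.31 in nonTreg, and Mylip at -0.38 in Treg and -0.52 in nonTreg. Cyp46a1 was dim in all 4 libraries, from 25.5 to 42.1. Npc1 and Soat1 lay within 1.17-fold of equality, and Npc2 was 1.39-fold higher in Treg and 1.06-fold lower in nonTreg. With Ch25h and Apoc2 left out, because spleen gives only a bound, the median was 0.28 in Treg, where that of all 7 was 0.55, and -0.31 in nonTreg, where that of all 7 was 0.75, so its sign in nonTreg rests on these genes.

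The libraries of brain T cells also held transcripts of microglia, macrophages and endothelial cells. Of 9 macrophage markers 8 were well above background in brain Treg and 8 in brain nonTreg, all but Cd163, against 1 in each spleen library, and their summed intensity was 7309 in brain Treg and 3279 in brain nonTreg, against 160.2 in spleen Treg and 124 in spleen nonTreg. All 10 microglia markers were above background in both brain libraries, against 4 in spleen Treg and 5 in spleen nonTreg. Their summed intensity was 58086 in brain Treg and 30092 in brain nonTreg, against sums of 22983 for spleen Treg and 20172 for spleen nonTreg. The brightest probes weigh most in such sums. Marker by marker, with bounds included, the median difference was 4.33 in Treg and 3.24 in nonTreg, with 1 marker lower in the brain cells of each type. Tmem119, P2ry12, Sall1, Fcrls and Olfml3, microglia markers, were not above background in either spleen library. All 7 endothelial markers were above background in both brain libraries, against 1 in each spleen library, with sums of 1835 in brain Treg and 2744 in brain nonTreg, against 138 in spleen Treg and 154 in spleen nonTreg. Unlike the macrophage and microglia markers, they were lower in brain Treg than in brain nonTreg, with a median of -0.73. T cell markers had medians of -0.28 in Treg and -0.18 in nonTreg, and all 10 proliferation markers were at least 2-fold higher in the brain cells of each type. The part of these other cells in the values of Abca1, Ch25h and Apoc2, and of the further cholesterol genes given below, was not tested.

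**Figure D5:**
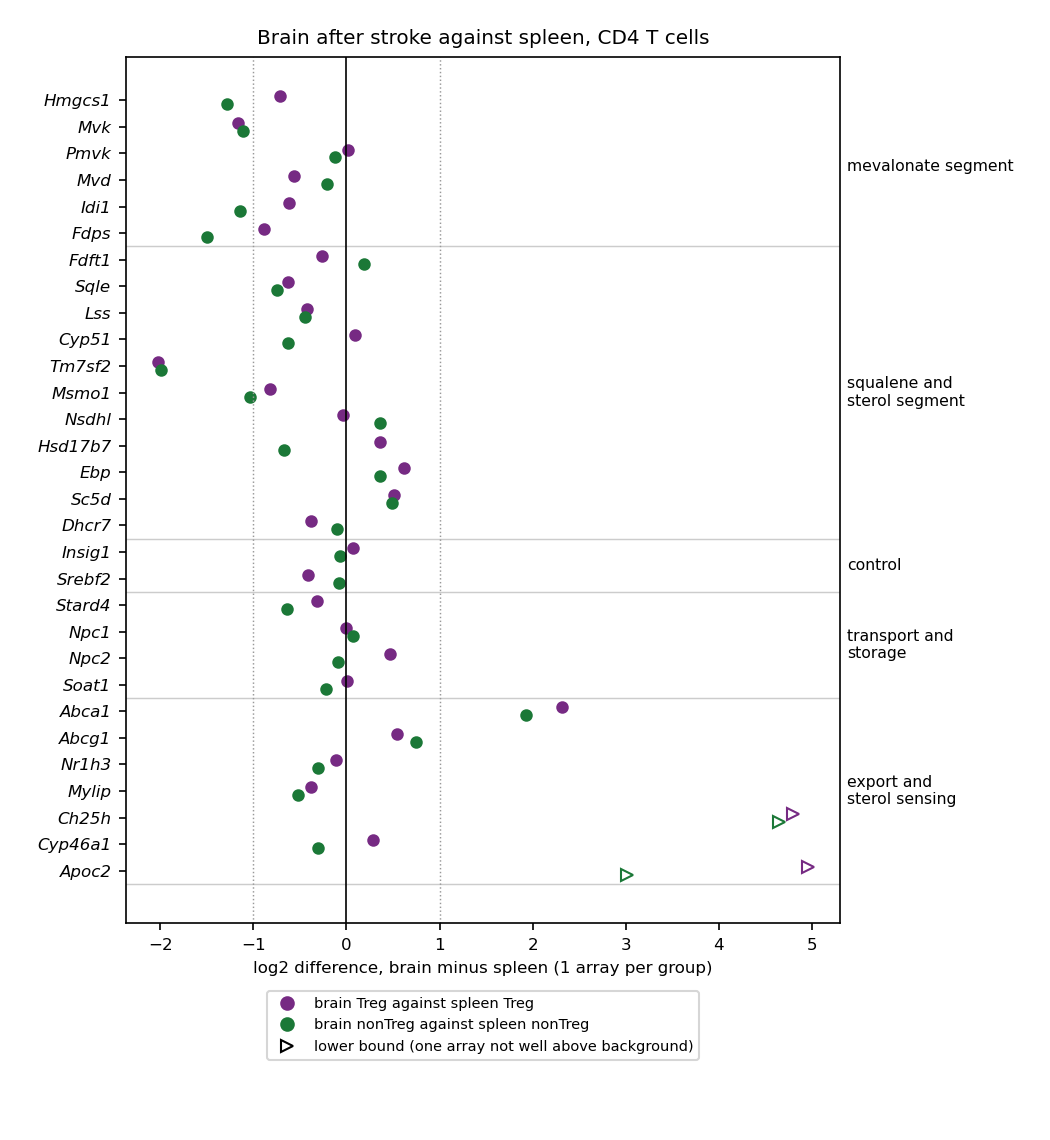
Log2 difference of each gene between brain and spleen (x axis) in Treg (purple) and nonTreg (green), with genes grouped by role on the y axis; dotted lines mark 2-fold and open triangles lower bounds. Abca1, Ch25h and Apoc2 stand at the right, and Tm7sf2, Fdps, Hmgcs1, Mvk, Idi1 and Msmo1 reach or approach 2-fold at the left in nonTreg.

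Between brain Treg and brain nonTreg, 1 of 30 members, Apoc2, was at least 2-fold higher in Treg (1.61) and none lower, where 4.63% of all 13756 genes were higher and 2.86% lower. The synthesis enzymes had a median of 0.06, with Hsd17b7 (0.87), Idi1 (0.76) and Cyp51 (0.65) the highest and Dhcr7 (-0.39) the lowest. Abca1 was 1.43-fold higher in brain Treg, and Ch25h 1.13-fold lower. Macrophage and microglia markers were higher in brain Treg as well, with medians of 1.24 and 1.30. Between spleen Treg and spleen nonTreg none of 28 members compared was at least 2-fold apart, where 5.38% of all 12546 genes were higher and 3.24% lower. The lowest member there was Npc2 (-0.76) and the highest Fdft1 (0.41), and the synthesis median was -0.04. The brain difference itself, Treg minus nonTreg, reached 2-fold for 1 of 28 members, Hsd17b7, where 2.30% of 11300 genes were higher by that much and 3.79% lower; the members' median was 0.14 and that of all genes 0.02. Hsd17b7 fell short of 2-fold with normexp (0.95) and with the median over a gene's probes (0.95).

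Among the further cholesterol genes, 7 of 25 were higher and 3 lower by 2-fold or more in brain Treg than in spleen Treg, and 5 and 5 of 24 in brain nonTreg than in spleen nonTreg. Over all genes the shares were 17.2% higher and 11.7% lower in Treg and 17.8% higher and 12.1% lower in nonTreg, so the 3 lower in Treg and the 5 higher in nonTreg are close to the share of all genes. Apoe read 60756 in brain Treg and 21844 in brain nonTreg, against 268 in spleen Treg and 205 in spleen nonTreg, and was 166-fold higher in Treg and 75.4-fold higher in nonTreg. For Apoc1 the bounds were 87.4-fold in Treg and 23.1-fold in nonTreg, for Lrp1, a lipoprotein uptake receptor, 25.6-fold in Treg and 11.3-fold in nonTreg, and for Lpl, lipoprotein lipase, 16.7-fold in Treg and 5.68-fold in nonTreg. Plin2 was 9.20-fold higher in Treg and 7.65-fold higher in nonTreg. The lower genes included Abcg4, at least 2.68-fold lower in Treg and 2.73-fold lower in nonTreg with dim signals throughout, the brightest 24.2 in spleen nonTreg. In nonTreg they also included Lrp8, 5.17-fold lower, and Lipa, 2.60-fold lower. The lowest values of the further cholesterol genes, -3.40 in Treg and -3.45 in nonTreg, lie outside the genes named here. Between brain Treg and brain nonTreg, 4 of 26 further cholesterol genes were higher in Treg by 2-fold or more, Apoc4 (at least 1.61), Apoc1 (1.59), Apoe (1.36) and Lpl (1.23), and none was lower. Of all 13756 genes in that comparison, 4.63% were higher and 2.86% lower. Macrophage and microglia markers had medians of 1.238 and 1.295 in the same comparison. The part of these cells in the values of the further cholesterol genes was not tested. Of 10 fatty acid synthesis genes compared, 1 was higher and 0 lower by 2-fold or more in brain Treg than in spleen Treg, and 2 were higher and 1 lower in brain nonTreg than in spleen nonTreg, with medians of 0.12 in Treg and 0.06 in nonTreg. Fads1, a fatty acid desaturase, was 2.16-fold higher in Treg and 1.97-fold higher in nonTreg. In nonTreg the desaturases Fads2 and Scd1 were higher by at least 2.99-fold and at least 2.21-fold, and Elovl6, a fatty acid elongase, was 2.16-fold lower.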

How the data were processed

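Mouse RNA was measured on the 8 Agilent arrays (single colour, Cy3) of 1 slide. Per the labels' protocols, QIAzol was used for tissue, TRIzol LS for CD4 T cells, and a low-input kit for labelling. Per the file headers, all arrays share a scan time and the T cell and tissue arrays lie in separate rows of the slide, so the 2 sets were never compared.

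The processed intensity in the deposited files is background-subtracted and detrended, with no normalization across arrays, per the file headers. Agilent Feature Extraction 10.7.1.1 made it, per the submitters' processing notes. The deposited series table of the authors gives a signal on a linear scale. Set against the scanner values, it is each array's processed intensity over a constant near its 75th percentile (within 0.1% for 99.89% to 99.97% of probes; column medians 0.068 to 0.123), and served as an alternative.

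Spots of a probe were averaged without outlier flags (69 to 109 spots per array); no spot was saturated, and 300 probes with several spots had a median SD of 0.040 to 0.045 (log2), a technical error only. Between 47.6% and 51.9% of probes were well above background on T cell arrays and 62.0% to 65.1% on tissue arrays. Of 56605 probes, 32994 matched 1 RefSeq symbol and 23611 none. Log2 intensity minus the array's 75th percentile was used, over the 24603 probes well above background on all 4 T cell arrays, or over all probes for tissue. A gene stands by its probe with the highest mean in its set, and was compared when well above background on at least 1 array; otherwise dim sides give bounds, taken against the dim probe's value or, if higher, the array's lowest value well above background. Each group has 1 array, so differences, counts at 2-fold and medians were described without a test. Stroke or brain differences were compared between groups over genes above background on all 4 arrays. The calculation was tested on simulated arrays.

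Every listed member is named, and of the further cholesterol and fatty acid genes up to 4 with the largest differences per comparison; Srebf1 and the lower ones beyond the largest were added after their values were seen, and some genes that this rule selects are not reported here. Members, lists and comparisons were chosen with earlier results of these data known. Alternatives were normexp (offset 50; on median spot and background intensities, since the deposited files hold no mean spot intensity), quantile normalization, the other probe set, the median as scaling point, only genes above background on every array, no filter, the median over a gene's probes, and the deposited table. Python 3.11.15, pandas 2.3.3, numpy 2.4.6, R 4.3.3 and limma 3.58.1 were used.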

Additional observations from a re-analysis of the deposited data

Results flagged for a closer look

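Hsd17b7, the ketosteroid reductase of the sterol segment, differed between brain and spleen in opposite directions in the T cell types: it was higher in brain Treg than in spleen Treg (0.36) and lower in brain nonTreg than in spleen nonTreg (-0.67). Its intensities were 556 in brain Treg and 279 in brain nonTreg, against 317 for spleen Treg and 315 for spleen nonTreg. The difference between the types was 1.04, and with 1 array per group it was not tested. It was the only 1 of 28 members at 2-fold in this comparison, where 2.30% of 11300 genes were higher by that much and 3.79% lower. No member passed 2-fold there with a normexp background correction or with the median over a gene's probes.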

How the results depend on the processing

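No paired analysis was possible because each group has 1 array. Of 160 list medians recomputed over all alternatives, 156 moved by less than 0.25 (log2). With only genes above background on every array compared, the export and sensing median moved to 0.28 in brain Treg against spleen Treg (5 genes), to -0.31 in brain nonTreg against spleen nonTreg (5 genes) and to 2.26 in WT ischemia against WT sham (6 genes), in each case because the bounded genes drop out. With no filter on dim probes it moved to -0.33 in spleen Treg against spleen nonTreg (7 genes), where the added genes are below background. Over all alternatives the synthesis median ran from -1.24 to -0.89 after stroke in WT mice and from -1.12 to -0.93 in DEREG mice. Of 2353 values of single members 55 moved by more than the tolerance, and none reversed a 2-fold difference. No alternative put a gene's further probe alone in place of the probe used. By their further probes, the 2-fold differences between brain and spleen of Mvk in both T cell types and of Msmo1 in nonTreg did change sign. Of 80 counts of members at 2-fold, 9 moved by more than 1.5 times. The count in DEREG ischemia against WT ischemia, which is Cyp46a1 alone, went to 0 with normexp and with scaling to the median. Scaling to the median shifted all genes by 0.07 in that comparison, and why normexp lowered the count was not tested. Normexp lowered the counts of genes at 2-fold between brain and spleen, to 1239 higher and 907 lower in Treg and 1219 higher and 890 lower in nonTreg, against 2372 and 1619 in Treg and 2389 and 1618 in nonTreg without it, and shifted the median of all genes by -0.13 in Treg and -0.12 in nonTreg. Normexp also gave 171 higher and 103 lower, against 637 and 394 without it, in brain Treg against brain nonTreg, 251 and 132 against 675 and 406 in spleen Treg against spleen nonTreg, 109 and 168 against 260 and 428 in the difference of brain differences, 167 and 408 against 398 and 905 in DEREG ischemia against WT ischemia, 11 and 2 against 96 and 73 in DEREG sham against WT sham, and 80 and 411 against 137 and 788 in the difference of stroke differences. Without the filter on dim probes the counts were higher, 1271 and 997 in brain Treg against brain nonTreg, 1309 and 1152 in spleen Treg against spleen nonTreg, 2017 and 1733 in the difference of brain differences, 784 and 1396 in DEREG ischemia against WT ischemia, 542 and 392 in DEREG sham against WT sham and 1083 and 1757 in the difference of stroke differences, and the lower genes between brain and spleen became 2552 in Treg and 2589 in nonTreg. With genes above background on every array, the higher genes between brain and spleen became 1450 in Treg and 1447 in nonTreg, the lower ones 257 in brain Treg against brain nonTreg and 227 in spleen Treg against spleen nonTreg, and DEREG sham against WT sham had 44 and 18. Scaling to the median shifted all genes by -0.17 in WT ischemia against WT sham and by 0.11 in the difference of stroke differences, a shift that moves every gene alike by construction. Signal near background limits Ch25h and Apoc2 in spleen and Apoc2 in sham tissue.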
